A study of Mus musculus with 27 samples.

Results

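The bin of 10 kb that holds the 5′ end of Lrp8, with 1 bin on either side, served as a viewpoint in capture Hi-C maps of mouse testis, a method that ligates DNA ends lying close together in the nucleus and enriches chosen regions with probes before sequencing. The gene (RefSeq gene 16975, plus strand) occupies chr4:107802200-107876840 in GRCm38, its 5′ end lies in chr4:107800001-107810000, and the viewpoint is chr4:107790001-107820000. It holds the first part of Lrp8, the antisense gene Lrp8os3 (chr4:107793149-107802064) and part of Lrp8os2 (chr4:107806033-107823022), so contacts of these 3 genes cannot be separated within it. Its partners were the 79 other bins of a densely captured core of 85 bins, chr4:107110001-107960000, outside the deleted span chr4:107710001-107740000; 60 partner bins lay left of the span and 19 right of it. Lrp8 is 1 of 6 genes in the authors' deposited table of expression near the deletion.

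The study removed a boundary between topologically associating domains, stretches of chromosome whose parts contact one another more than they contact their neighbours, with CRISPR-Cas9. Of 27 testis samples, 6 were capture Hi-C libraries: 3 labelled wild type and 3 labelled B396.BOS_hom_KO, homozygous for the deletion. RNA-seq covered 3 wild-type, 3 heterozygous and 3 homozygous samples and entered here only through the authors' regression tables. Strain, age and whether an individual mouse underlies each library are not given in the sources used here, so p-values measure the spread between libraries, which may be technical. Testis is a mixture of germ cells and somatic cells, and the contact maps average over all of them.

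LRP8, also called apolipoprotein E receptor 2, belongs to a family of cell-surface receptors for lipoproteins and signalling ligands. In neurons it binds reelin and passes the signal on through the adaptor DAB1. In testis it is known as the receptor through which Sertoli cells take up selenoprotein P, the selenium source for the glutathione peroxidase GPX4 of developing sperm. A promoter at a domain boundary's flank mostly contacts its own side, and contact frequency falls steeply with distance along the chromosome.

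The 250 bases before the 3 Lrp8 starts in the RefSeq promoter table and before the Glis1 start are shown. The viewpoint is built on the first Lrp8 start, and the other 2 lie in partner bins inside the gene. Contacts with the Glis1 start, on the far side, did not overlap between genotypes relative to those expected under any distance tried, although raw counts did. The sequences are from GRCm38.p6, plus strand, 5′ to 3′, with CG dinucleotides in capitals.
Lrp8, the first start, chr4:107802635-107802884: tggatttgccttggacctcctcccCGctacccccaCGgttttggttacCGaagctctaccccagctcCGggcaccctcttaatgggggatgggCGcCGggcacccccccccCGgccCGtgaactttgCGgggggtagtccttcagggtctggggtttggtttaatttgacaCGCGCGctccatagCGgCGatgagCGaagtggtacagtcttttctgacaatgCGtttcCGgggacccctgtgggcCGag
Lrp8, the second start, chr4:107822911-107823160: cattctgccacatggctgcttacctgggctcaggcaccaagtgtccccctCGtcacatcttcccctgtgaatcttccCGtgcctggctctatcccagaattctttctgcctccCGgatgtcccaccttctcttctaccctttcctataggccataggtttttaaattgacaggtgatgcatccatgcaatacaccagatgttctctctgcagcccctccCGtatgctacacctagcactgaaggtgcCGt
Lrp8, the third start, chr4:107830703-107830952: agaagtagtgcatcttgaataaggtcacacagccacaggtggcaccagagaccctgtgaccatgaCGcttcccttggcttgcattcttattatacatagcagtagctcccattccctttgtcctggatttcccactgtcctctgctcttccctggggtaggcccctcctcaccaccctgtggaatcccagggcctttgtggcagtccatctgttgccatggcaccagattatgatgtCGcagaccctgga
Glis1 start, chr4:107434469-107434718: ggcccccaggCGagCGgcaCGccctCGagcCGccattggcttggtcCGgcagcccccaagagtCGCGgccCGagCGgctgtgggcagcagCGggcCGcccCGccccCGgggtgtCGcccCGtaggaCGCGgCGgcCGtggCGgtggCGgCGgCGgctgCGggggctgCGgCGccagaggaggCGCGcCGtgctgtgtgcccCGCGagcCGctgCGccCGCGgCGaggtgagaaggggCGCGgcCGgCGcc
The first Lrp8 start has 18 CG dinucleotides in 250 bases, more than 78.3% of 32851 mouse promoters of the same length, whose median was 6. The second has 5 and the third has 2, fewer than that median. The Glis1 start has 41, more than 98.9% of promoters. Searched on both strands, the GC box GGGCGG, held by 32.7% of promoters, and CCAAT, held by 33.9%, were in none of the 3 Lrp8 windows, and the Glis1 window held 2 and 1 of them, respectively. TATAAA, held by 12.4% of promoters, was in none of the 4.

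The libraries held 5669898 to 7794641 contacts, and the viewpoint was an end of 49224 to 101063 of them. Contacts of the viewpoint with its 79 partners, on which every share below rests, numbered 16686, 30981 and 21707 in the wild-type libraries, against 16514, 36524 and 22392 in the homozygous ones, each in the order of replicates 1, 2 and 3, which all later values keep. Replicate 2 was the deepest at the viewpoint in both genotypes. The viewpoint took 4.78%, 5.54% and 4.83% of chromosome 4 contacts in wild type, against 4.93%, 5.68% and 4.93% in homozygotes, a difference of 0.132 percentage points (5.05% ± 0.426 against 5.18% ± 0.431, SD, n = 3; exact permutation p = 0.5, two-sided). Unpaired, capture depth at Lrp8 thus differed by less than the spread between libraries. Paired by replicate number, it was higher in the homozygous library of each pair, by 0.1557, 0.1389 and 0.1001 points (exact sign-flip permutation p = 0.25, the smallest for 3 pairs). A small difference in depth is therefore not excluded. The bins of the span itself checked the labels: the viewpoint made 244, 447 and 337 contacts with chr4:107720001-107730000 in wild type, against 1, 0 and 0 in homozygotes, and 484, 810 and 617 against 2, 3 and 1 with chr4:107730001-107740000. The bin chr4:107710001-107720000 kept 72.9% of its wild-type contacts with other chromosomes, and the 3 bins together lacked the equivalent of 22.7 kb in homozygotes.

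In wild type most core contacts of the Lrp8 promoter lay on its own side of the span, which holds every partner bin nearer than 100 kb. Of its core contacts, 29.1% ± 1.33 (SD, n = 3) joined it to the 50 kb between the span and the viewpoint, 30.1% ± 1.86 to the rest of the Lrp8 gene and 8.45% ± 0.458 to the 80 kb to the right of Lrp8, which holds most of Magoh, and Czib and Cpt2. Across the span, 6.80% ± 0.141 reached the 70 kb with Dmrtb1, a gene of the DMRT family of transcription regulators expressed in germ cells, 14.0% ± 0.598 reached Glis1, a Krüppel-like zinc finger gene of 220 kb of bins, and 11.5% ± 0.488 reached the 310 kb left of Glis1.

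Partners within 500 kb were ranked relative to the mean contact of bin pairs at the same distance within either side; the 19 left bins further away have no such value. The highest wild-type partner on the right was chr4:107740001-107750000, the first bin beyond the span, with 594, 1041 and 718 contacts and an observed over expected ratio of 0.63 ± 0.09 on the log2 scale (SD, n = 3). It was followed by chr4:107760001-107770000 (0.48 ± 0.02) in the long non-coding gene Gm12907, chr4:107820001-107830000 (0.32 ± 0.22), which holds the second Lrp8 start, chr4:107750001-107760000 (0.30 ± 0.05) and chr4:107850001-107860000 in the Lrp8 gene (0.26 ± 0.11). The SDs of the last 3 overlap. On the left the highest was chr4:107430001-107440000 (0.49 ± 0.21), the bin of the Glis1 start, with 107, 211 and 125 contacts. The next were chr4:107440001-107450000 in Glis1 (0.37 ± 0.08), chr4:107410001-107420000 in the nuclear pore gene Ndc1 (0.35 ± 0.13), chr4:107490001-107500000 in Glis1 (0.32 ± 0.16) and chr4:107700001-107710000 at Dmrtb1 (0.31 ± 0.13). These 5 do not differ beyond their spread. The order changed when the matrix was balanced for bin visibility by iterative correction. The first bin beyond the span stayed first on the right (0.74 ± 0.03), and the bin 150 kb right of Lrp8 came second (0.46 ± 0.15). The bins chr4:107750001-107760000 and chr4:107760001-107770000 were at 0.35 and 0.23. The bin of the second Lrp8 start and chr4:107850001-107860000 fell to -0.01 ± 0.02 and 0.02 ± 0.03. On the left the Dmrtb1 bin came first (0.43 ± 0.13) and the Glis1 start second (0.15 ± 0.09). The named bins chr4:107440001-107450000, chr4:107410001-107420000 and chr4:107490001-107500000 fell to 0.02, 0.03 and -0.13.

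**Figure D1:**
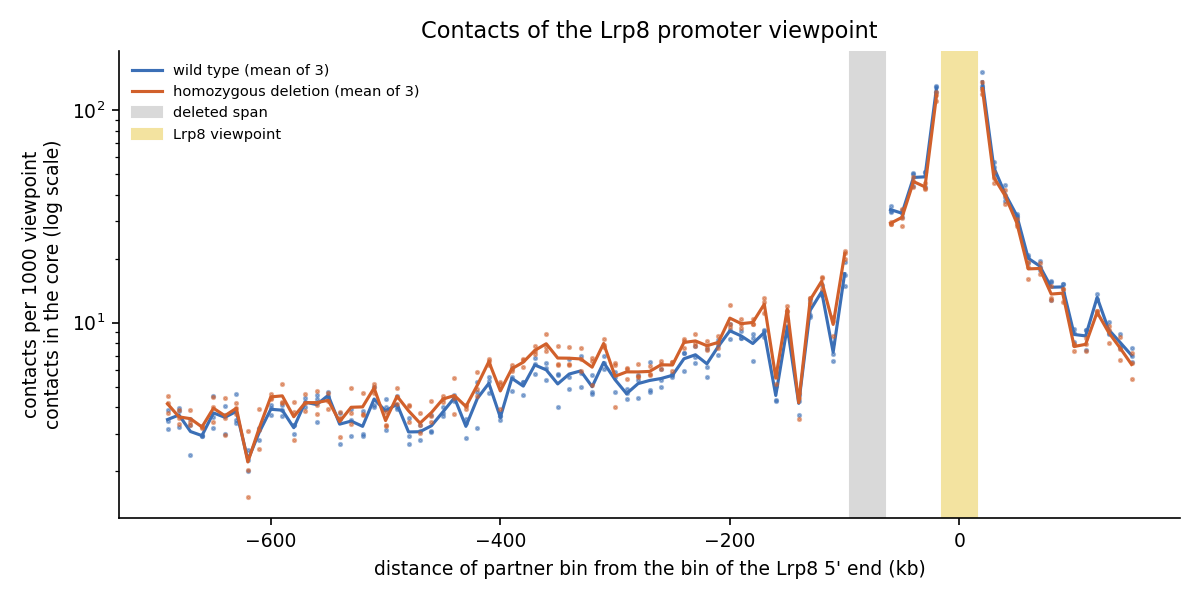
Contacts of the Lrp8 viewpoint with each partner bin, per 1000 viewpoint contacts in the core (log scale), against distance from the bin of the Lrp8 5′ end in kb; points are the 6 libraries, lines the means of 3, the grey band is the deleted span and the yellow band the viewpoint. Means per bin run from 2.26 to 17.0 left of the span and from 7.02 to 136 right of it in wild type, and the homozygous line lies above the wild-type line over most of the left side.

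In the libraries with the span deleted, a larger share of the contacts of Lrp8 lay on the far side, by more than the spread between libraries. The share of core contacts left of the span was 32.8%, 32.3% and 32.0% in wild type, against 38.5%, 37.5% and 36.7% in homozygotes, from 5476, 10001 and 6944 contacts against 6351, 13710 and 8207. Every homozygous library lay above every wild-type library. The means were 32.4% ± 0.420 and 37.5% ± 0.903 (SD, n = 3), a difference of 5.19 percentage points (two-sided exact permutation p = 0.1, which is the lowest possible with 3 against 3 libraries). With the libraries paired by replicate number the differences were 5.64, 5.26 and 4.66 (exact sign-flip permutation p = 0.25, the smallest for 3 pairs). The share was also higher for each of the 3 bins of the viewpoint taken alone, by 4.23, 4.61 and 4.68 points from left to right, and for the bins of the second and of the third Lrp8 start, by 3.90 and 4.77 points. Genotypes did not overlap in any of the 5.

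The difference lay in all 3 segments left of the span. Contacts with Glis1 went from 14.0%, 14.6% and 13.4% to 16.7%, 17.5% and 16.0% of the viewpoint's core contacts, higher by 2.71 points on average, the most of the 6 segments. The Dmrtb1 segment went from 6.87%, 6.64% and 6.89% to 8.17%, 8.00% and 8.04%, and the segment left of Glis1 from 12.0%, 11.0% and 11.7% to 13.6%, 12.1% and 12.6%. None of these 3 segments overlapped between genotypes (exact permutation p = 0.1 each, adjusted p = 0.2 over 6 segments). With a viewpoint of 5 bins the segment left of Glis1 differed by 0.806 points in place of 1.21 and overlapped (exact permutation p = 0.4), and without homozygous replicate 1 it differed by 0.804. Shares must sum to 100%, so a rise in some is matched by a fall in others. Segments on the Lrp8 side were lower, at 26.7% ± 1.07 between the span and the viewpoint, 28.0% ± 1.43 in the rest of Lrp8 and 7.73% ± 0.493 to its right, each overlapping with wild type. Counted per 1000000 chromosome 4 contacts instead, the same 3 differed by only -56.0, -5.70 and -26.2 from wild-type means of 4816, 5026 and 1398, while the Glis1, Dmrtb1 and far-left segments were higher by 661, 312 and 357 from means of 2334, 1128 and 1913. On that scale the Glis1 segment overlapped, since wild-type replicate 2 (2749) lay above homozygous replicate 3 (2636). Against the decay of contacts with distance in the captured core of chromosome 2, the segment right of Lrp8 was lower without overlap. Its log2 observed over expected differed by -0.08 (exact permutation p = 0.1), while those between the span and the viewpoint and in the rest of Lrp8 overlapped (-0.02 and -0.01).

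A deletion also brings its flanks closer, so the left contacts were held against those expected at their distance. Within 500 kb the log2 observed over expected was -0.10, 0.07 and -0.10 in wild type, against 0.19, 0.39 and 0.17 in homozygotes, so the genotypes did not overlap (difference 0.29, exact permutation p = 0.1). With a viewpoint of 1 bin the difference was 0.27 and the genotypes overlapped (exact permutation p = 0.3). Once homozygous distances were shortened by the missing 22.7 kb, homozygotes were at 0.05, 0.24 and 0.03 and overlapped with wild type, and the difference was 0.15 (exact permutation p = 0.3). Shortening by 2 bins left 0.17 (exact permutation p = 0.2) and by 3 bins 0.10 (exact permutation p = 0.3). The homozygous library was higher than the wild-type library of its number in all 3 pairs under each of these lengths.

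How much remained differed by distance, and shortening by construction takes off more in the nearer bands. Between 100 and 200 kb left of Lrp8, where Dmrtb1 lies, the difference of 0.31 at reference distances was 0.09 after shortening by the missing length and 0.00 after 3 bins. Between 200 and 300 kb it was 0.25, and then 0.11 and 0.07. Between 300 and 400 kb, where the Glis1 start lies, it was 0.32, and then 0.25 and 0.22, with the genotypes overlapping. Between 400 and 500 kb it was 0.27, and then 0.25 and 0.24. In that last band the wild-type libraries were at -0.19, -0.17 and -0.17 and the homozygous ones at 0.07, 0.15 and -0.01 after shortening by the missing length, still without overlap (exact permutation p = 0.1); it rests on 715 to 1684 contacts per library.

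**Figure D2:**
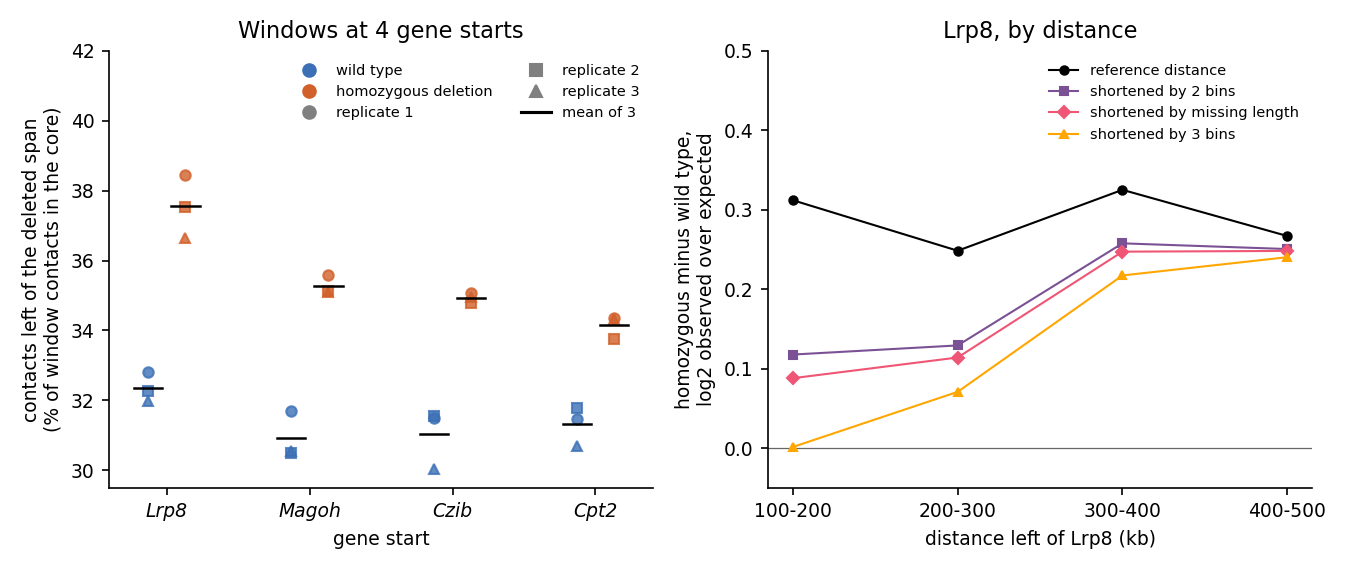
Left, the percentage of core contacts that lie left of the deleted span for windows at the starts of Lrp8, Magoh, Czib and Cpt2, with 1 symbol per library and a bar at the mean of 3; right, the homozygous minus wild-type difference of log2 observed over expected for Lrp8 in 4 bands of distance (kb), at the reference distance and with homozygous distances shortened. The Lrp8 share is 32.4% in wild type and 37.5% in homozygotes on average, and at 100 to 200 kb the difference falls from 0.31 to 0.09 with the missing length taken off, against 0.27 to 0.25 at 400 to 500 kb.

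Both sides could be set against each other at matched distances of 100 to 150 kb, a comparison added after the values had been seen. The viewpoint made 1075, 1901 and 1403 contacts with the left bins and 913, 1637 and 1248 with the right bins in wild type, and 1254, 2732 and 1676 against 858, 1688 and 1149 in homozygotes. At this distance the left bins thus held more raw contacts than the right bins in wild type too, in each library. The log2 of left over right was 0.21 ± 0.03 in wild type and 0.60 ± 0.09 in homozygotes (SD, n = 3), without overlap (exact permutation p = 0.1). With the left bins taken 2 further away in homozygotes the difference was 0.11 (exact permutation p = 0.2), and with 3 further it was -0.03 (p = 0.8), so its direction depended on the length assumed.

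Single partner bins were tested by quasi-likelihood in edgeR within a table of 1975 window-by-bin rows spanning the core, in which some bin pairs enter from both ends. None of the 79 partner bins passed a Benjamini-Hochberg adjusted p of 0.05, against 0.253% of all rows, and DESeq2 also called 0, against 0.253%. An unadjusted p under 0.05 was reached by 19 of the 79 in edgeR, against 224 of all 1975 rows. In DESeq2 it was 8 of the 79, against 106 of all 1975 rows. Leaving out wild-type replicate 2 gave 5 calls by edgeR, all higher in homozygotes, against 3.65% of all rows. Libraries with the same replicate number deviated together in all 3 pairs (correlations of 0.30, 0.64 and 0.21). Replicates 1 and 3 did so across numbers as well (0.20 and 0.26), so only replicate 2 stood apart. With the replicate number as a block 19 partner bins passed, against 12.0% of all rows. Of these, 17 were higher in homozygotes and all lay left of the span, where 23.3% of the rows of all windows that cross the span were called higher. The other 2 were lower and lay on the Lrp8 side, the first bin beyond the span (chr4:107740001-107750000, log2 change -0.18 ± 0.05 SE) and the bin of the third Lrp8 start (chr4:107830001-107840000, -0.12 ± 0.04), where 4.01% of all rows within a side were called lower.

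The sign of the change split at the span. Without the block, 57 of 60 left bins had a log2 change above 0, with a median of 0.22 against 0.19 for all 778 rows crossing the span. On the right 0 of 19 did, with a median of -0.08, although with library sizes taken from all of chromosome 4 it was 7 of 19 and the median -0.01. Counted by libraries, 21 of the 60 left bins were higher without overlap, against 27.1% of all crossing rows, and 5 of the 19 right bins were lower without overlap, against 4.93% of rows within a side.

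Glis1 held 10 of the 17 bins called higher with the block, out of its 22 bins, against 3 of 31 left of it and 4 of 7 between it and the span. Of all rows crossing the span, 23.3% were called higher in that fit, and differences between segments in these counts were not tested. The bin chr4:107630001-107640000, at the 3′ end of Glis1 and 170 kb from Lrp8, had 155, 283 and 186 contacts in wild type, against 207, 475 and 250 in homozygotes. Its log2 change was 0.48 ± 0.12 (SE; edgeR adjusted p = 0.0813), and 0.48 ± 0.08 with the block (adjusted p = 2.17e-05). The smallest adjusted p without the block was at chr4:107690001-107700000, in Dmrtb1 and 110 kb away, with 134, 205 and 155 against 175, 317 and 228 contacts (log2 change 0.46 ± 0.11, edgeR adjusted p = 0.0748, with the block 2.16e-04). The bin chr4:107440001-107450000, 360 kb away and next to the Glis1 start, had 102, 167 and 141 against 146, 269 and 172 contacts (0.44 ± 0.11, edgeR adjusted p = 0.0946, with the block 0.00195). Raw counts overlap between genotypes in each, and replicate 2 had the most viewpoint contacts in both genotypes. The 10 bins with the smallest adjusted p all lay left of the span, 6 of them in Glis1.

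By construction, shortening by the missing length took more from bins near the span. It took a log2 change of 0.36 at 100 kb, against 0.06 at 370 kb. With the block and distances shortened by the missing length, 4 partner bins passed, against 4.35% of all rows: 3 higher, all in Glis1 (5.91% of crossing rows were called higher), and the first bin beyond the span, lower (3.17% of rows within a side were called lower). With 2 bins it was 6, against 5.11%. The 3 were chr4:107440001-107450000 (log2 change 0.37, adjusted p = 0.0240), chr4:107450001-107460000 (0.37, adjusted p = 0.0405) and chr4:107630001-107640000 (0.30, adjusted p = 0.0215), by edgeR. The Dmrtb1 bin 110 kb away was then at 0.15 (adjusted p = 0.367), and chr4:107700001-107710000, 100 kb away, went from 0.35 to -0.01. Shortened by 3 bins, only chr4:107440001-107450000 was still called higher (0.36, adjusted p = 0.0338), against 3.34% of crossing rows; the first bin beyond the span was still lower, against 2.59% of rows within a side, and 3.09% of all rows were called.

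**Figure D3:**
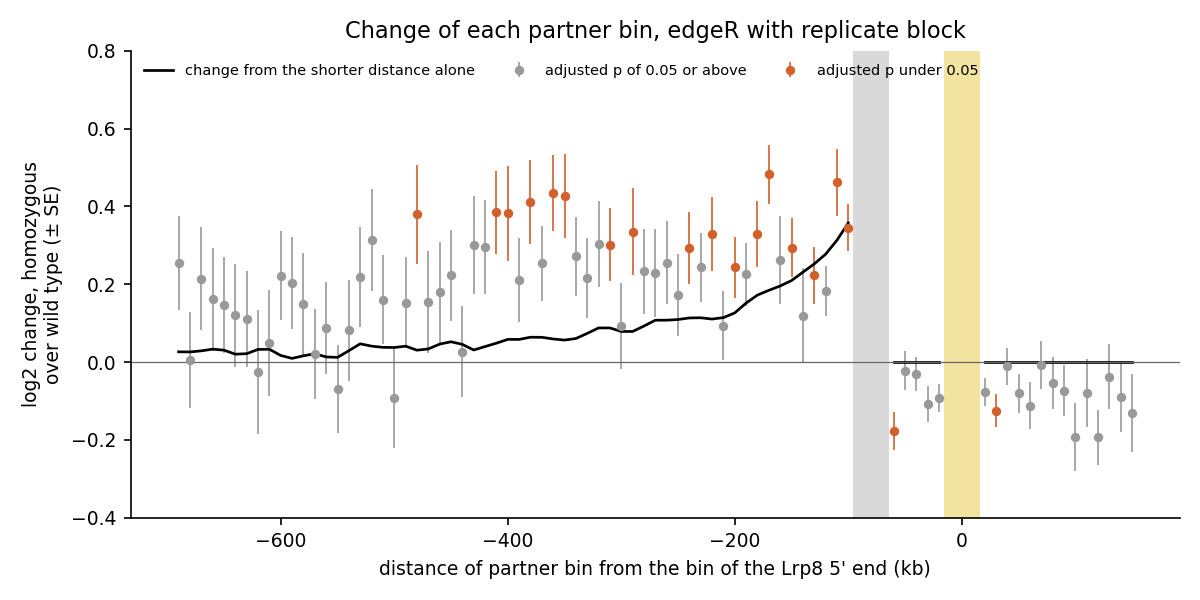
Log2 change of each partner bin, homozygous over wild type, from edgeR with the replicate block (points, ± SE; orange where the adjusted p was under 0.05), against distance from the bin of the Lrp8 5′ end in kb; the black line is the change that the shorter distance alone would give if 22.7 kb were missing. All 17 orange points left of the grey span lie above 0, and the black line meets the points near the span and stays below most of those in Glis1, 170 to 380 kb away.

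Windows of 30 kb around gene starts were then compared gene by gene, over 14 gene starts in 11 windows. Starts were taken from the RefSeq promoter table. That of Glis1, chr4:107434719, lies inside its gene record, which begins at chr4:107426636, within the same window. The Glis1 start, 370 kb to the left and shared with the short gene Gm46866, took 1.78%, 1.75% and 1.68% of the viewpoint's core contacts in wild type, against 2.23%, 2.18% and 2.15% in homozygotes, from 297, 541 and 365 against 369, 798 and 481 contacts. The 3 homozygous libraries were all higher than the 3 wild-type libraries, by 0.453 points on average (exact permutation p = 0.1, adjusted p = 0.275 over 11 windows). Against the decay of contacts with distance in the captured core of chromosome 2, which carries no deletion, its log2 observed over expected was 0.21, 0.38 and 0.17 in wild type, against 0.59, 0.75 and 0.55 in homozygotes. Shortening by the missing length left 0.53, 0.67 and 0.50, and by 3 bins 0.51, 0.65 and 0.48, so that the genotypes did not overlap under any of these lengths (differences 0.38, 0.31 and 0.29; exact permutation p = 0.1 each).

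Dmrtb1 lies on the minus strand, and its gene record reaches to chr4:107704011, in a bin 100 kb from Lrp8. The Dmrtb1 start in the promoter table lies at chr4:107684230, 120 kb away, and its window leaves that end out. This start took 3.43%, 3.25% and 3.14% in wild type, against 3.92%, 3.81% and 3.76% in homozygotes, also without overlap. Its log2 observed over expected differed by 0.28 at reference distance, by -0.00 after shortening by the missing length and by -0.11 after 3 bins (exact permutation p = 0.1, 1 and 0.2). The sign of the Dmrtb1 difference beyond distance therefore changed with the length assumed. The Ndc1 start, 440 kb away, went from 1.10%, 1.18% and 1.17% to 1.40%, 1.26% and 1.23% without overlap in share, but overlapped against the chromosome 2 decay, relative to all chromosome 4 contacts and with a viewpoint of 5 bins (exact permutation p = 0.2 each). Starts further left, of Yipf1, Dio1, which makes a selenium-containing deiodinase, Lrrc42 with Hspb11, and Tceanc2 with Tmem59, overlapped between genotypes with differences of -0.00587 to 0.0783 points. On the Lrp8 side Gm12907 (11.5% against 10.7%), the exon junction gene Magoh (5.33% against 4.96%) and Czib (4.79% against 4.54%) were lower on average and overlapped. Cpt2, a mitochondrial fatty acid enzyme gene 120 kb to the right, was lower without overlap, at 3.11% ± 0.156 against 2.81% ± 0.122 (SD, n = 3; exact permutation p = 0.1). Relative to all chromosome 4 contacts Cpt2 overlapped, with a difference of -0.00144 percentage points (exact permutation p = 0.5). Against the chromosome 2 decay Cpt2 was lower without overlap, with a log2 difference of -0.10 (exact permutation p = 0.1). Gm12907 did not overlap with viewpoints of 1 or 5 bins (-0.783 and -1.55 points, exact permutation p = 0.1 each). Ldlrad1 and Lrp8os3 have no start in the promoter table, the window of 4933424M12Rik overlaps the viewpoint and the start of Cdcp2 lies outside the core, so these 4 were not measured.

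**Figure D4:**
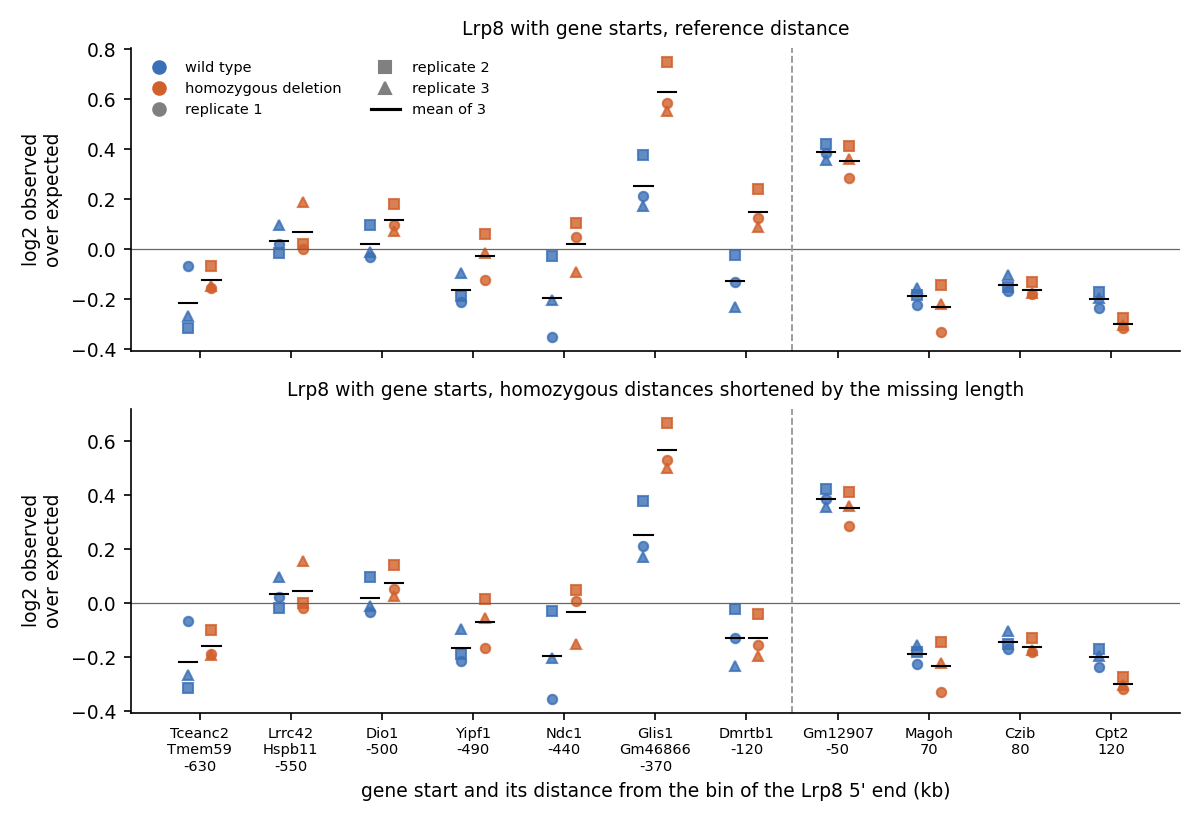
Log2 observed over expected contacts of the Lrp8 viewpoint with windows at 11 gene starts (1 symbol per library, bar at the mean of 3), against the chromosome 2 decay at reference distances (top) and with homozygous distances shortened by the missing length (bottom); numbers below the names are kb from the bin of the Lrp8 5′ end and the dashed line marks the span. At Glis1 the homozygous libraries lie above the wild-type ones in both panels (means 0.63 and 0.57 against 0.25), whereas at Dmrtb1 they do so only at reference distances.

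Other promoters on the right side also had larger left shares in homozygotes. The left share went from 30.9% to 35.3% at Magoh, 31.0% to 34.9% at Czib and 31.3% to 34.1% at Cpt2, each without overlap, and the log2 observed over expected within 500 kb differed by 0.22, 0.17 and 0.13 against 0.29 at Lrp8. Lrp8 less each gene, taken within a library, was higher in homozygotes by 0.07, 0.12 and 0.16 (exact permutation p = 0.5, 0.2 and 0.2; adjusted p = 0.5, 0.3 and 0.3 over 3 genes), which did not exceed the spread between libraries, although all 3 pairs were above 0 for each gene (exact sign-flip permutation p = 0.25 each). With windows slid along the right side, the left share was higher in homozygotes by 9.13 points 50 kb to the left of the Lrp8 start, nearest the span, by 5.19 at Lrp8, between 4.99 and 5.40 over the next 50 kb of the gene and 2.28 to 2.97 from 110 to 140 kb to its right; neighbouring windows share bins. None of the 20 windows overlapped between genotypes.

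The profile of log2 change over the 60 left bins correlated with that of Magoh at a Pearson r of 0.27, of Cpt2 at 0.08 and of Czib at -0.00; these are descriptions over bins of the same 6 libraries. Differences between these r were not tested. For the Glis1 start alone, after shortening by the missing length, the log2 observed over expected differed by 0.31 at Lrp8, 0.14 at Magoh, 0.15 at Czib and 0.07 at Cpt2. Unpaired, Lrp8 less each gene again did not exceed the spread (differences 0.18, 0.16 and 0.24, exact permutation p = 0.3, 0.3 and 0.2, unadjusted). Paired by replicate number, the difference was above 0 in all 3 pairs for each gene, at 0.26, 0.05 and 0.22 for Magoh, 0.26, 0.06 and 0.18 for Czib and 0.27, 0.22 and 0.24 for Cpt2 (exact sign-flip permutation p = 0.25 each, the smallest for 3 pairs).

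The change in contacts was set beside expression. In the authors' deposited table, which regresses each gene's expression on genotype over the 9 RNA-seq samples, the Lrp8 slope was 1.25, with t = 0.564, p = 0.590 and an FDR of 0.991. The standard error that the slope and t imply is 2.22, and the 95% interval is -4.01 to 6.51, so neither a fall nor a rise is shown; neither the expression unit nor how genotype was coded is given in the sources used here. Dmrtb1 had a slope of 81.6, p = 0.0229 and an FDR of 0.137 in the authors' deposited table, the lowest p in it. Glis1, whose start took a larger share of Lrp8 contacts in homozygotes, had a slope of 0.0850 (p = 0.663), Lrp8os3 a slope of -0.00912 (p = 0.826), and 4933424M12Rik a slope of 0.109 (p = 0.493), by the authors' deposited table. In bulk testis, fewer cells of a type and less RNA per cell cannot be told apart in such slopes, and levels per library, including markers of testis cell types, were not analysed here.

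Genes that work with LRP8 were looked up in the authors' deposited table of genes elsewhere in the genome, which lists 566 genes with p up to 0.00998, or 1.57% of the 35970 tests that its FDR values imply. Of 13 receptors, ligands and adaptors, such as Reln, Dab1 and Apoe, 1 was listed: Vldlr, the other reelin receptor, with a slope of 0.104, p = 0.00618 and an FDR of 0.631 in the authors' deposited table, which does not pass an FDR of 0.05. Of 17 genes of selenium use, among them Selenop, Gpx4 and Txnrd3, 0 were listed, which says only that none reached the p at which the table stops; a share of 1.57% is less than 1 gene in a list of 17 or 13.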

How the data were processed

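Contact counts of 6 capture Hi-C libraries in bins of 10 kb were used as deposited; per the labels' protocols the Arima kit was followed by Agilent SureSelect enrichment, and the submitters' processing notes name mm10. Aligner, filters and binning are not given in the sources used here, and files were matched to libraries by genotype and number. The t statistic (a score), p-value, FDR and slope (a score without unit) come from tables that the authors deposited; their p-values equal those of t with 7 degrees of freedom. CTCF ChIP-seq was not analysed here.

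The members, gene lists and tests were chosen with earlier results of these data known. Sums per library were compared by exact permutation tests. Counts of 25 windows of 3 bins with every bin of the core (1975 rows, mean count at least 5) were fitted with edgeR 4.0.16 (quasi-likelihood, library size from the table) and, as an alternative, DESeq2 1.42.0. On simulated counts for this table, edgeR called 86% of rows changed 1.5-fold, 4% of those changed 1.2-fold and 0.451% of unchanged rows. The expected count of a bin pair was the mean of pairs at that distance within either side of the span, or in the core of chromosome 2. At distances longer than the right side, as in the bands from 300 to 500 kb, the first of these came from left pairs alone. Distances in homozygotes were also shortened by 2 bins, 3 bins or the missing 22.7 kb, estimated from contacts of the 3 affected bins with other chromosomes. Named bins were the 10 with the smallest adjusted p and the 5 highest wild-type partners on each side; all gene starts of the core were reported. A gene of the fixed list of receptors is not reported here. Deviations from the group means correlated between libraries of the same number at 0.30, 0.64 and 0.21 over 1975 rows, so the numbers were taken as pairs; replicates 1 and 3 also correlated across numbers (0.20 and 0.26). Sequences are from RefSeq promoter tables; all 4 windows matched by symbol. Alternatives cover normalization, count filters, viewpoint width, expectation, balancing and leaving out each library.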

Additional observations from a re-analysis of the deposited data

How the results depend on the processing

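The higher left share held its direction and its separation between genotypes under all alternatives tried for it: viewpoints of 1 or 5 bins, balancing, leaving out partners within 50 kb, and leaving out each library (4.73 to 5.63 points). The difference in log2 observed over expected stayed above 0 throughout, and was 0.22 to 0.35 without single libraries. The genotypes overlapped with a viewpoint of 1 bin (0.27) and with shortened distances, down to 0.02 with partners within 250 kb and 3 bins shortened. Without homozygous replicate 2 (0.22) the exact permutation p was 0.2, although the remaining libraries did not overlap. The count of partner bins changed, 0 without the block, was 0 to 5 when single libraries were left out and 0 under TMM, DESeq2, chromosome 4 library sizes, both count filters, both viewpoint widths and shortened distances without the block. With the replicate block it was 19, and 6, 4 and 2 with distances also shortened by 2 bins, the missing length and 3 bins. A viewpoint of 1 bin with the block, chosen after seeing the data, gave 7. The block changed no other call except the count of gene starts.

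Gene start windows higher without overlap numbered 3, and 5 were higher in all 3 pairs under the replicate block. Measured over expected, 1 was left, that of Glis1, after shortening by 3 bins or by the missing length (added after seeing the data). Likewise 1 of 3 segments was left under both, since a shorter distance raises the expected count. It was the segment left of Glis1, with log2 differences of 0.13 and 0.15 (exact permutation p = 0.1 each). The Glis1 segment overlapped, with differences of 0.15 and 0.19 (exact permutation p = 0.3 each). These directions reversed: left over right at matched distance, -0.0263 with left bins 3 further (added after seeing the data); Dmrtb1 start -0.11, the Glis1-to-span segment -0.0795 and Lrrc42 with Hspb11 0.000577 after 3 bins; Lrrc42 with Hspb11 0.00135, Magoh 0.000316 and Czib 0.00161 scaled to chromosome 4; Magoh 0.0157 and Tceanc2 with Tmem59 -0.0581 with a viewpoint of 1 bin, and the latter -0.0354 with 5 bins. Without single libraries Tceanc2 with Tmem59 ranged from -0.0506 to 0.0917, Lrrc42 with Hspb11 from -0.0749 to 0.0627, and the viewpoint's coverage from -0.117 to 0.377 points. The cause of these reversals was not tested, beyond the shorter distance that the alternative itself assumes. Changes of 1.2-fold were mostly missed in counts simulated with the depth and spread of the fit without the block. How much of this is due to depth was not tested.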
